A study of Mus musculus with 4 samples.

Results

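The small leucine-rich proteoglycans are secreted matrix proteins built from short leucine-rich repeats, and 8 genes of the family were described here: Dcn (decorin), Bgn (biglycan), Lum (lumican), Fmod (fibromodulin), Ogn (osteoglycin), Prelp (proline and arginine rich end leucine rich repeat protein), Podn (podocan) and Aspn (asporin). They were chosen by name and taken by gene ID from the 30406 genes listed for all 4 libraries, and all 8 had counts of unique molecular identifiers (UMIs, tags that mark single captured transcripts) in every library. Their levels are given by cell class, by fibroblast subset and for the ligated gland against the mock gland.

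The libraries came from female C57BL6/J mice and the submandibular salivary gland, at an age not stated in the labels. In the ligated group, 1 library, a metal clip had closed the main ducts for 14 days, and in the mock group, 3 libraries (mock 1, 2 and 3), the ducts were located 14 days earlier with no clip. All libraries were depleted of cells carrying EpCAM (epithelium) or Ter119 (red blood cells) and of dead cells, so epithelial values below come from cells that escaped the depletion. The labelled tissue is the submandibular gland, while the protocol names the sublingual gland too. The labels do not say whether the libraries came from separate animals or pools, so p-values measure only the spread between these libraries.

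In connective tissue these proteins bind collagen fibrils and shape their width and spacing. Decorin and biglycan carry chondroitin or dermatan sulfate chains and bind transforming growth factor beta, and biglycan released from matrix can act on Toll-like receptors. Lumican, fibromodulin and Prelp belong to the branch that can carry keratan sulfate or tyrosine sulfate. Asporin has a stretch of aspartate residues and podocan is a more distant relative. In most organs fibroblasts are their main source.

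The family lies largely in 3 gene clusters, here given in the GRCm38 build with the GENCODE vM21 annotation. On chromosome 10, Dcn (chr10:97479609-97518143, plus strand) and Lum (chr10:97565128-97572703, plus strand) lie 47.0 kb apart, followed by the family members Kera and Epyc. On chromosome 13, Aspn (chr13:49544443-49567565, plus strand) and Ogn (chr13:49608046-49624501, plus strand) flank Omd, and all of them lie inside Cenpp on the opposite strand. On chromosome 1, Prelp (chr1:133910304-133921414, minus strand) and Fmod (chr1:134037254-134048277, plus strand) lie 116 kb apart with no coding gene between them. Bgn (chrX:73483602-73495933, plus strand) and Podn (chr4:108014791-108096445, minus strand, overlapping Scp2) lie alone. Exons make up from 5.23% (Podn) to 49.5% (Bgn) of these gene bodies. Prelp overlaps the antisense gene Gm15851, whereas Scp2 lies on the same strand as Podn. The labels do not state whether counting used strand, and the part of overlapping genes in the members' counts was not tested.

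RefSeq's promoter table (GRCm38.p6) held 6 of the 8 members, Dcn and Lum not among them. The 250 bases before the start are printed for the 3 members with the largest positive fold change in ligated fibroblasts (Fmod, Bgn and Aspn) and for Ogn, the neighbour of Aspn, whose level lay within the mock range. Sequences run 5′ to 3′ on the gene's strand, and capitals mark matches on either strand to the TATA box, spelled TATAAA, the GC box, spelled GGGCGG, the AP-1 motif, spelled TGANTCA, and the TEAD motif, spelled GGAATG.
Fmod, chr1:134037004-134037253, plus strand: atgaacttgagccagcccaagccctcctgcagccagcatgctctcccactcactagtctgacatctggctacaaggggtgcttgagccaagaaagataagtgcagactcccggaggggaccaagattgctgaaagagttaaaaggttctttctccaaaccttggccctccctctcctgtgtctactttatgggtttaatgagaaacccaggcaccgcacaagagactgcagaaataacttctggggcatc
Bgn, chrX:73483351-73483600, plus strand: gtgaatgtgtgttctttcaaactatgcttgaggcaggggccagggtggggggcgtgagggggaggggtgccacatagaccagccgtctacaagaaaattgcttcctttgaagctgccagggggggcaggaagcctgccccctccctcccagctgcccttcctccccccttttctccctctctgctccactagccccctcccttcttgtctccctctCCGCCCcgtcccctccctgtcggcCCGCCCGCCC
Aspn, chr13:49544193-49544442, plus strand: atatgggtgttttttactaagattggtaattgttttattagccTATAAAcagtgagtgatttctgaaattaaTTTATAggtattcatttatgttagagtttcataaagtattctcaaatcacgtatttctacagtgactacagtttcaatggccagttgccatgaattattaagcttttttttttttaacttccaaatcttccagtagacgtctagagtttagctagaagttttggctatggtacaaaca
Ogn, chr13:49607765-49608014, plus strand: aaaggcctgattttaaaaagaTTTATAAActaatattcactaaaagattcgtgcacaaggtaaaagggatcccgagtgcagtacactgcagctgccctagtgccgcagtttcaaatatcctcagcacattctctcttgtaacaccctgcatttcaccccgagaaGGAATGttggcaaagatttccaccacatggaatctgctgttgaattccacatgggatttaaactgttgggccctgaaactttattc
The Fmod window held no match to these 4 motifs. The Bgn window held 3 GC boxes on the reverse strand, 2 of them overlapping, within the last 34 bases. Aspn and Ogn windows each held a TATA box on both strands, in Ogn as an overlapping pair, between 178 and 229 bases before the start, and Ogn also held a TEAD motif 86 bases before it. Starts are RefSeq's, and the Ogn window ends at 49608014, ahead of the GENCODE gene start at 49608046. Bases just after the RefSeq start of Ogn were not found in its GENCODE transcripts. Among 32851 promoter windows of the same length, 12.4% held the TATA box, 32.7% the GC box, 6.75% the AP-1 motif and 12.6% the TEAD motif. The GC content of the windows was 51.2% for Fmod, 64.4% for Bgn, 30% for Aspn and 42.0% for Ogn.

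Cells were clustered without the 8 genes and clusters were named from marker genes, so each class name means cells like that type. Fibroblasts numbered 1206 of 12572 cells in the ligated library (9.59%) and 205 of 4513 (4.54%), 408 of 9080 (4.49%) and 576 of 12698 (4.54%) in mock 1, 2 and 3. Libraries held 29897488 to 80187555 UMIs over 4798 to 13790 barcodes, and pairs of libraries shared 11 to 61 barcodes. Per the file headers the ligated library and mock 1 were made with Cell Ranger 6.0.1 and mock 2 and 3 with 7.0.0, so the software version splits the mock group. In a chi-square comparison of summed fibroblast counts, mock 2 against mock 3 gave 1.70 per degree of freedom and mock 1 against them 19.9 and 20.9, so mock 2 and 3 were far more alike than either was to mock 1. All 10 fibroblast markers were detected in every library, summing to 21370 raw CPM in ligated and 18730, 14870 and 14280 raw CPM in mock 1, 2 and 3 fibroblasts. Raw CPM here are UMIs of a gene per 1000000 UMIs of the class in that library.

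Among classes large enough to rank, 6 of the 8 members had their highest level in fibroblasts, as the heat map of levels by class shows, and Aspn and Fmod were the exceptions. Levels by class are raw CPM, and classes of at least 30 cells in every library were ranked by the median of the 4 libraries. The description carries no test, since classes come from clustering these cells. Fibroblasts held between 96.8% (ligated) and 99.2% (mock 1 and 3) of all Dcn UMIs, 95.4 to 99.5% of Lum and 97.3 to 99.3% of Podn. The share was lower for Bgn, at 82.2 to 93.8%, and for Prelp, at 73.2 to 89.5%.

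**Figure D1:**
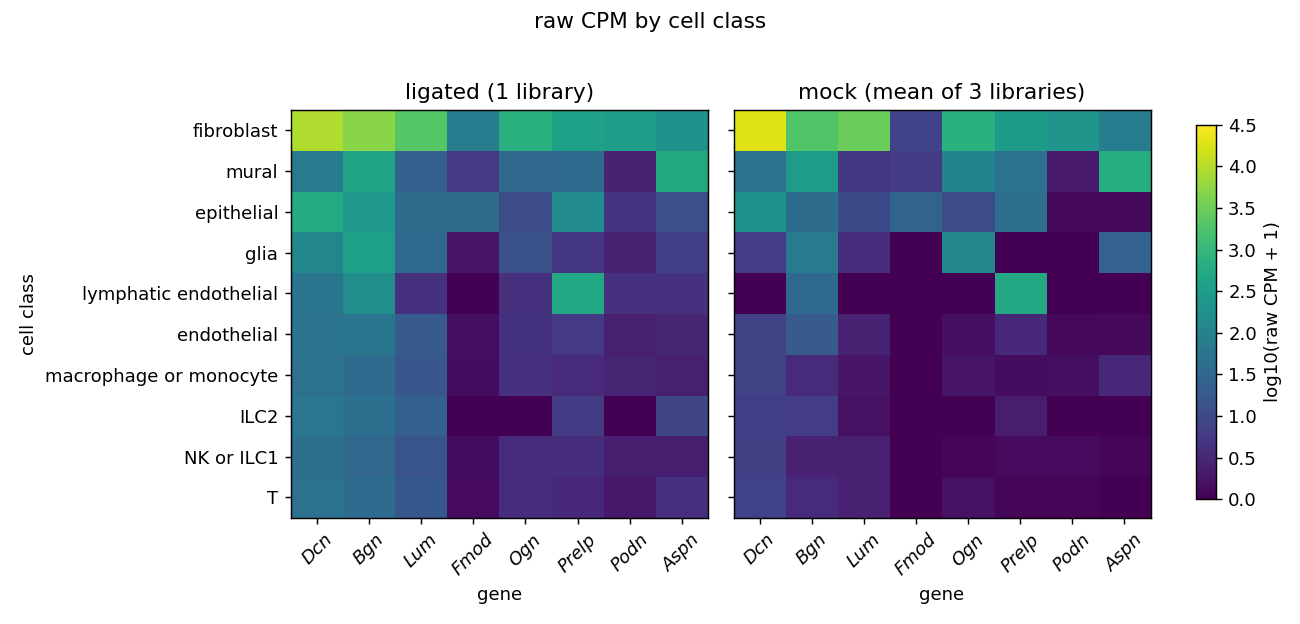
Colour gives log10(raw CPM + 1) of each of the 8 genes (columns) in 10 cell classes (rows), for the ligated library on the left and the mean of the 3 mock libraries on the right. Fibroblasts are the brightest row in both panels for Dcn, Bgn, Lum, Ogn and Podn, Aspn is brighter in mural cells, Prelp is brighter in lymphatic endothelial cells, which were too few to rank, and Dcn, Bgn and Lum are brighter in lymphocyte rows of the ligated library than of the mock mean.

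Asporin was a mural gene first. Its level in mural cells, the pericytes and smooth muscle around vessels, was 532 raw CPM in the ligated library against 589, 670 and 561 in mock 1, 2 and 3. In fibroblasts the level was 196 in the ligated library against 109, 62.8 and 60.2 in the mock libraries, so mural values exceeded fibroblast values in each library. Pericytes (the cluster led by Kcnj8 and Abcc9) and smooth muscle (the cluster led by Tagln and Myh11) carried like amounts, with 466 to 656 raw CPM over libraries in the former and 565 to 683 in the latter. No other ranked class had a median above 2.42 raw CPM, and glia, too few to rank, had 5.95 in the ligated library against 0, 17.5 and 58.1 in the mock libraries.

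Fibromodulin, which binds fibrillar collagen, had no class that led in every library. In mock libraries its level was 62.2, 7.33 and 11.7 raw CPM in epithelial cells, 9.68, 4.04 and 7.33 in fibroblasts and 5.98, 4.75 and 4.45 in mural cells. In the ligated library fibroblasts stood first at 75.8, with epithelial cells at 34.3 and mural cells at 4.87. The epithelial UMIs came almost wholly from the cluster led by Krt14, Pcp4, Fxyd3 and Krt17, which held 17 Fmod UMIs in 59 ligated cells and 22, 7 and 12 UMIs in 13, 33 and 26 mock cells. The same cluster held Prelp at 269 raw CPM in the ligated library against 287, 88.0 and 89.0 in the mock libraries. The other epithelial cluster of the class, led by Fxyd2 and kallikreins, held 1 Fmod UMI over all 4 libraries.

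Prelp, a collagen-binding protein of basement membranes, was also seen in the few lymphatic endothelial cells. The ligated library had 482 raw CPM over 31 such cells (exact Poisson 95% interval 407 to 567), and mock 1, 2 and 3 had 986, 319 and 257 over 6, 11 and 9 cells. These levels matched or exceeded Prelp in fibroblasts, which was 377 raw CPM in the ligated library against 343, 257 and 247 in the mock libraries. Among ranked classes osteoglycin came second in mural cells, at 31.4 raw CPM in the ligated library against 169, 80.7 and 70.4 in the mock libraries, against 713 to 763 in fibroblasts of all libraries. Glia, too few to rank, held Ogn at 11.9 raw CPM in the ligated library against 122, 34.9 and 180 in the mock libraries.

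Biglycan had the widest reach. After fibroblasts came mural cells, at 425 raw CPM in the ligated library against 411, 265 and 219 in mock 1, 2 and 3. Among blood endothelial clusters the one led by the venular genes Vwf, Selp, Lrg1 and Ackr1 stood out, with 262 raw CPM in the ligated library (239 cells) and 444, 223 and 221 in the mock libraries, the ligated value lying within the mock range. In glia, the Schwann-like cells of nerves, Bgn was at 344 raw CPM in the ligated library (exact Poisson 95% interval 311 to 379, 313 cells) and 57.1, 99.0 and 52.8 in the mock libraries (22, 44 and 51 cells). A Bgn UMI was found in 53.4% of ligated glia and in 13.6%, 27.3% and 13.7% of mock glia, at median depths of 2974, 4046, 2967 and 2504 UMIs. The ligated interval lay above all mock intervals, the highest mock bound being 159, although intervals cover counting error only and glia were too few in mock 1 for the planned test.

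Free RNA in the droplets can give a low level of abundant transcripts in all cells, so the members were also read in cells that should lack them. In lymphocytes of the NK or ILC1 class Dcn was at 45.3 raw CPM in the ligated library against 7.14, 5.57 and 5.45 in mock 1, 2 and 3. As a percentage of the fibroblast level, Dcn in NK or ILC1 cells was 0.483% in the ligated library against 0.0468%, 0.0270% and 0.0267% in mock. The same percentage in ligated NK or ILC1 cells was 0.568% for Bgn, 0.667% for Lum, 0.367% for Ogn and 0.751% for Prelp. In ligated endothelium the percentages were 0.535% for Dcn, 0.898% for Lum and 0.469% for Podn, and values at this level are not read as expression here, although the part of free RNA in them was not tested. Mural Aspn, glial Bgn, venular Bgn and lymphatic Prelp lay far above the NK or ILC1 levels.

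In fibroblasts the ligated library had more Fmod, Bgn, Aspn, Podn and Prelp and less Dcn and Lum than any mock library, and Ogn lay within the mock range. None of the 8 passed the test across all genes, edgeR's quasi-likelihood test on summed counts with Benjamini-Hochberg adjustment, in which 0 of 12416 genes passed (0%). Unadjusted p-values were under 0.05 for 1507 genes, and DESeq2 called 270. Without the ligated library's own replicates the test takes its spread from the mock libraries. Over all genes tested, 30% lay above the mock range and 28.8% below it, against 5 and 2 of the 8 members, so a position outside the range is common by itself. The members' median log2 fold change was 0.59 and that of all genes tested -0.04. CPM without the word raw are counts scaled by edgeR's TMM library sizes, and they serve for the comparisons of ligated with mock.

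Fibromodulin had the largest fold change of the 8. Its level in fibroblasts was 81.1 CPM in the ligated library against 9.87, 3.87 and 7.09 CPM in mock 1, 2 and 3, from 908 UMIs in the ligated library against 21, 13 and 28 in the mock libraries. The ligated value stood above all mock values, with a log2 fold change of 3.58 ± 0.44 (SE) and an adjusted p of 0.150 by edgeR. DESeq2 gave 3.58 with an adjusted p of 4.02e-06, and over the alternatives the adjusted p ran from 1.01e-12 to 0.748. At an equal depth of 1500 UMIs per cell, 9.36% of ligated fibroblasts (1164 cells) had an Fmod UMI, against 1.51%, 0.499% and 0.911% in mock 1, 2 and 3 (199, 401 and 549 cells). Before thinning these shares were 32.3%, 3.41%, 2.70% and 3.47%, and NK or ILC1 cells of the ligated library, with a median depth of 5082 UMIs against 9522 in fibroblasts, had 0.249%. Fibroblasts held 94.3% of Fmod UMIs in the ligated library against 38.2%, 44.8% and 54.9% in mock, where epithelial and mural cells held most of the rest.

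Biglycan, the closest relative of decorin, was at 5463 CPM in ligated fibroblasts and 2779, 1422 and 1419 CPM in mock 1, 2 and 3. The ligated level lay above the mock levels and the log2 fold change was 1.54 ± 0.43 (SE), adjusted p = 0.342 by edgeR. Decorin was lower in the ligated library, at 10019 CPM in the ligated library against 15546, 19705 and 19707 CPM in mock. Its log2 fold change was -0.87 ± 0.20 (SE), adjusted p = 0.280 by edgeR. The pair thus stood at opposite sides of the mock range, although neither passed the test.

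Asporin was at 210 CPM in ligated fibroblasts and 111, 60.1 and 58.2 CPM in mock 1, 2 and 3, with a log2 fold change of 1.46 ± 0.41 (SE) and an adjusted p of 0.352 by edgeR. The 10 mural markers, all detected in fibroblast sums of every library, also stood above the mock range there, at 627 raw CPM in the ligated library against 337, 353 and 422 in mock 1, 2 and 3, and their part in the Aspn difference was not tested. Fibroblasts, 9.59% of ligated cells and 4.49% to 4.54% of mock cells, held 63.7% of Aspn UMIs in the ligated library against 16.5%, 15.0% and 14.0% in mock, where mural cells held 82.7% to 84.4%. At 1500 UMIs per cell, 20.0% of ligated fibroblasts had an Aspn UMI and 7.04%, 5.99% and 7.29% of mock fibroblasts did. Before thinning the shares were 63.0%, 29.8%, 23.0% and 20.0%, against 0.842% in NK or ILC1 cells of the ligated library.

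Lumican, which keeps collagen fibrils thin, was at 2180 CPM in the ligated library against 2695, 2996 and 3051 CPM in mock 1, 2 and 3 fibroblasts. Its log2 fold change was -0.42 ± 0.16 (SE), adjusted p = 0.415 by edgeR. Podocan was at 345 CPM in the ligated library against 251, 216 and 195 CPM, and Prelp at 404 CPM against 350, 246 and 239 CPM. Both ligated values lay above the mock range, and neither passed the test (adjusted p = 0.396 and 0.468 by edgeR). Osteoglycin was the level member, at 765 CPM in the ligated library between mock values of 778, 712 and 689 CPM.

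**Figure D2:**
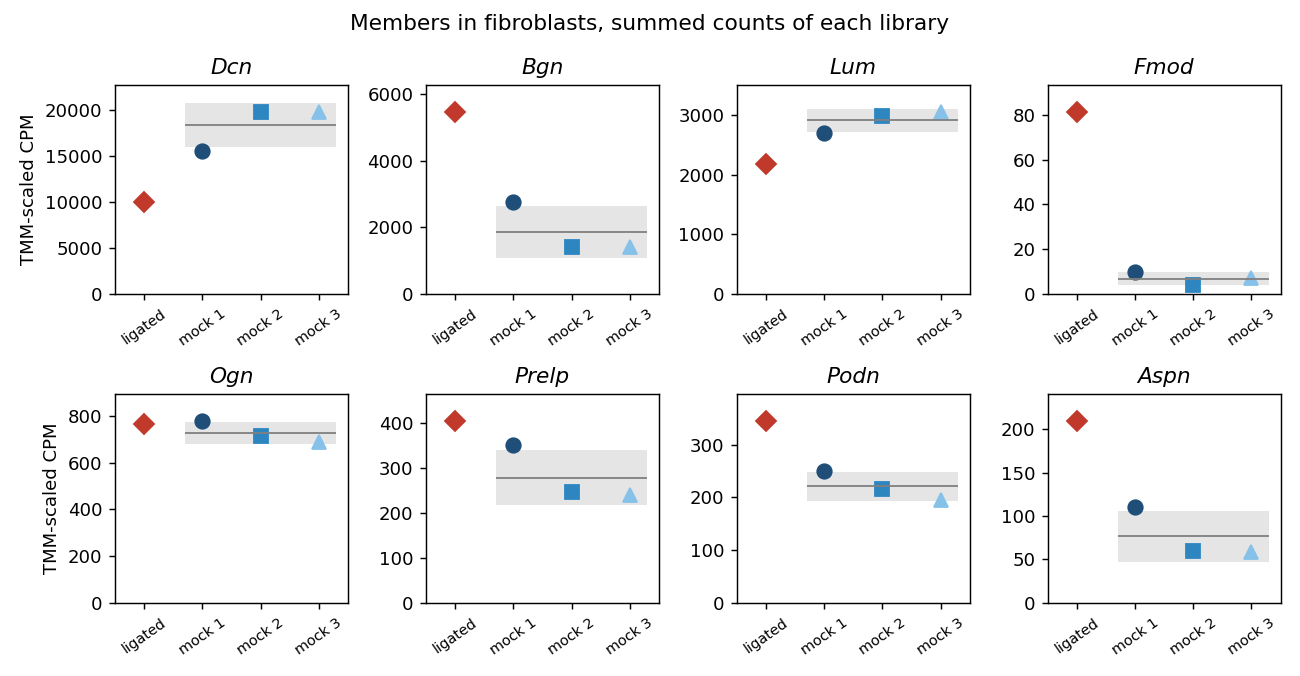
Each panel gives 1 gene's TMM-scaled CPM in fibroblasts of the 4 libraries, with the mean (line) and SD (band) of the 3 mock libraries. The ligated diamond lies above all mock symbols for Bgn, Fmod, Prelp, Podn and Aspn, below them for Dcn and Lum, and among them for Ogn.

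Mock 1 was the mock library nearest to the ligated one for all 7 members outside the mock range. Over all genes outside the range in fibroblasts, mock 1 was the nearest for 56.2%. Against mock 1 alone, which shares the ligated library's Cell Ranger version, the log2 ratios were 2.98 for Fmod, 0.97 for Bgn, 0.91 for Aspn, 0.46 for Podn, 0.21 for Prelp, -0.02 for Ogn, -0.31 for Lum and -0.63 for Dcn. Surgery and software version can be told apart only through that library. These ratios have no test, and they placed the members in the same order as the full comparison.

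The make-up of the family in fibroblasts differed accordingly. Dcn gave 51.5% of the 8 genes' UMIs in the ligated library against 69.0%, 77.7% and 77.7% in mock 1, 2 and 3. Bgn gave 28.1% in the ligated library against 12.3%, 5.61% and 5.59% in mock. The share of Lum hardly varied, at 11.2% in the ligated library against 12.0%, 11.8% and 12.0% in mock. Together the 8 genes made up 1.82% of all fibroblast UMIs in the ligated library against 2.21%, 2.65% and 2.62% in mock. A UMI counts a transcript end, so these shares are not per length, and each gene is compared only with itself across libraries.

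**Figure D3:**
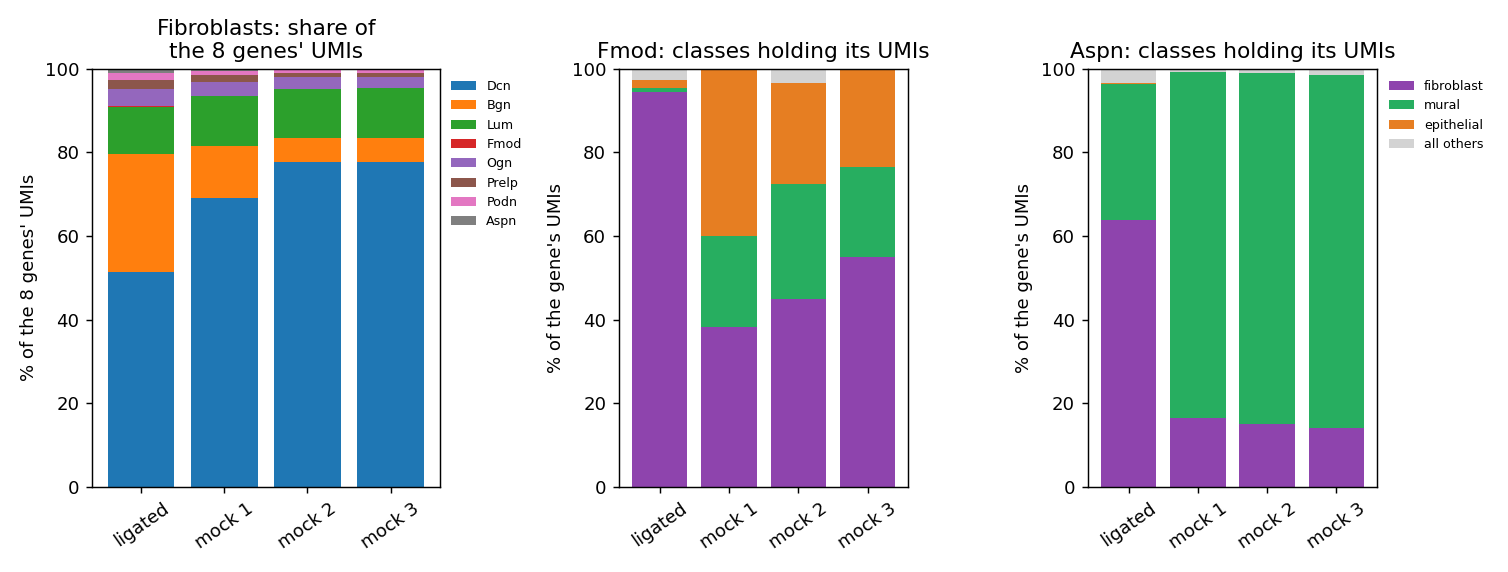
The left panel stacks the 8 genes' percentages of their summed UMIs in fibroblasts of each library, and the other panels stack the percentages of all Fmod and all Aspn UMIs held by fibroblasts, mural cells, epithelial cells and all other classes. In the ligated library Bgn takes 28.1% of the family's fibroblast UMIs, and fibroblasts hold 94.3% of Fmod and 63.7% of Aspn UMIs.

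Mural cells were compared in the same way. In mural cells 0 of 11545 genes passed edgeR's test (0%), with 519 at an unadjusted p under 0.05 and 1 called by DESeq2, while 26.0% of all genes lay above the mock range and 26.4% below it. Of the 7 members tested there, 1 lay above the range (Lum), 2 below it (Ogn and Prelp) and 4 within it, and Podn was too low to test. Aspn was at 548 CPM in the ligated library against 627, 645 and 541 CPM in mock 1, 2 and 3. Ogn was at 32.4 CPM in the ligated library against 180, 77.7 and 67.9 CPM in mock, with a log2 fold change of -1.74 ± 0.70 (SE) and an adjusted p of 0.808 by edgeR. Lum was at 23.7 CPM in the ligated library against 1.59, 3.43 and 7.81 CPM in mock. In the ligated library this was 1.13% of its fibroblast level, against 0.667% in NK or ILC1 cells, and the part of free RNA in it was not tested. Fmod was at 5.01 CPM in the ligated library against 6.36, 4.57 and 4.29 CPM in mock. Those mural values rest on 11 UMIs in the ligated library against 12, 8 and 11 in mock 1, 2 and 3.

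The difference between fibroblasts and mural cells was then tested in 1 model with a term for each library. Here 57 of 12628 genes passed edgeR's test (0.451%), with 1302 at an unadjusted p under 0.05, and Fmod was the only member among them. Its ligated minus mock difference was larger in fibroblasts than in mural cells by 3.57 ± 0.50 (SE) on the log2 scale, adjusted p = 0.0310 by edgeR. The call ended without mock 2, where 0 genes passed, with a difference of 3.35 and an adjusted p of 0.381 by edgeR. DESeq2 gave Fmod no adjusted p in this model. Aspn differed by 1.67 ± 0.33 (SE) with an adjusted p of 0.0795 by edgeR, and Lum by -2.80 ± 0.51 (SE) with an adjusted p of 0.0654. Bgn (1.03, adjusted p = 0.155), Prelp (1.03, 0.123), Ogn (1.71, 0.251), Dcn (-1.63, 0.445) and Podn (0.18, 0.992) did not pass either. The mural side of the Lum difference rests on 52 UMIs in the ligated library against 3, 6 and 20 in mock 1, 2 and 3. The part of free RNA in it was not tested.

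**Figure D4:**
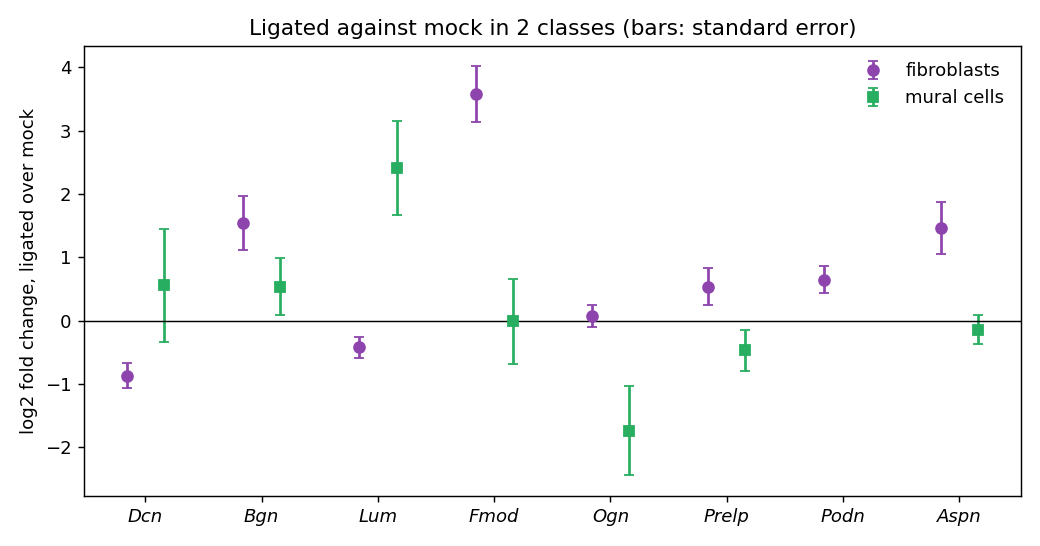
Points give edgeR's log2 fold change of ligated over mock for each gene in fibroblasts (circles) and mural cells (squares), and bars give its standard error. Podn has no mural point because it was too low to test, and Fmod shows 3.58 in fibroblasts against -0.01 in mural cells.

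In blood endothelium all 7 members tested lay above the mock range, and all but Bgn and Prelp had ligated levels near those of NK or ILC1 cells. Here 0 of 14158 genes passed edgeR's test (0%), with 1281 at an unadjusted p under 0.05 and 230 called by DESeq2, and 28.9% of genes lay above the mock range and 27.4% below it. Dcn was at 48.8 CPM in the ligated library against 8.30, 5.80 and 5.06 CPM in mock, and DESeq2 called it (adjusted p = 3.48e-08) together with Bgn (0.0238) and Lum (0.0113). Ligated endothelium held 0.535% of the fibroblast level of Dcn, next to 0.483% in NK or ILC1 cells and 0.530% in T cells. Bgn was at 54.8 CPM in the ligated library against 24.4, 14.8 and 17.3 CPM in mock. The part of free RNA in these differences was not tested. Fmod was too low to test in endothelium.

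Fibroblasts fell into 8 subsets when clustered on their own, and the subsets were filled by different libraries. Subset 1 (786 cells), led by Cmss1, Gm16263 and Lrmda, held only cells of mock 2 and 3, the libraries made with Cell Ranger 7.0.0. Subset 2, led by Thbs4, Spp1 and Timp1, held 483 ligated cells of 490. Subset 3, led by Ccn5, Adra2c and Cpxm2, held 447 ligated cells of 476. Subset 4, led by Angptl1, Masp1 and Penk, held 68 ligated, 151 mock 1, 10 mock 2 and 6 mock 3 cells. Subset 8, which carries the Pi16 and Dpp4 markers of adventitial fibroblasts, held 17 ligated and 12, 5 and 7 mock cells. The remaining subsets were led by endothelial genes (subset 5), lymphocyte genes (subset 7) or low in UMIs (subset 6). Fibroblast sums carried endothelial markers at 459 raw CPM in the ligated library against 388, 963 and 1143 in mock, and NK or ILC1 markers at 270 against 53.5, 33.9 and 114. Macrophage or monocyte markers summed to 212 raw CPM in the ligated library against 28.1, 33.6 and 44.0 in mock. Without subsets 5, 6 and 7 the Fmod log2 fold change was 3.65, and edgeR again called 0 genes. Subsets come from clustering, so their levels carry no test.

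Members divided between the 2 large subsets of the ligated gland. Subset 2 had the higher Fmod, at 95.9 raw CPM against 52.9 in subset 3, and 48.7% of its cells had an Fmod UMI against 21.3%. Subset 3 had more Ogn (1229 against 472 raw CPM), Prelp (656 against 272) and Podn (561 against 232). Bgn was alike in both, at 5832 raw CPM in subset 2 and 5252 in subset 3. Subset 2 cells were deeper (a median of 11900 UMIs over the subset against 7752), which bears on the shares of cells. The few mock 1 cells of these subsets also held Fmod, at 41.0 raw CPM in 5 cells of subset 2 (3 UMIs, exact Poisson 95% interval 8.46 to 120). In 13 mock 1 cells of subset 3 it was at 86.5 (11 UMIs, 43.2 to 155). Those UMIs came from 1 cell of subset 2 and 3 cells of subset 3, and the intervals leave out the spread between cells. In subset 3 the mock 1 value was thus not below the ligated one, whereas mock 2 and 3 had 0 and 1 UMIs in 9 and 7 cells.

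Subset 4 allowed the ligated library to be set beside mock 1 within a single cluster and software version. There Fmod was at 58.3 raw CPM in 68 ligated cells and 3.01 in 151 mock 1 cells (46 and 5 UMIs). Those UMIs came from few cells, 7 of the 68 ligated cells (10.3%) and 2 of the 151 mock 1 cells. Aspn was at 236 in ligated and 66.7 in mock 1 cells, and Bgn at 3562 and 2740. Dcn was at 10373 and 16476, while Podn was at 219 and 218. Prelp was lower in ligated cells here, at 262 against 349, the reverse of its order in all fibroblasts, and Ogn was at 391.8 against 642 and Lum at 2384 against 2901. Against mock 1, Fmod, Aspn, Bgn, Dcn and Lum had the order seen in all fibroblasts, with 1 library on each side and no test. The 10 mock 2 and 6 mock 3 cells of the subset had Aspn at 302 and 109, Podn at 338 and 191 and Lum at 3034 and 1689. Ligated Aspn and Podn thus lay below mock 2, and ligated Lum above mock 3. Fmod, Bgn and Dcn kept their order against these few cells too.

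Adventitial fibroblasts had low Bgn and Podn in every library. Bgn was at only 280 raw CPM in ligated cells of subset 8 and 466, 423 and 471 in mock 1, 2 and 3. Podn was at 23.7 and 55.3, 30.2 and 31.4, and no Fmod UMI was found in any of these cells. Mock 2 cells of subsets 3, 4 and 7 also held 0 Fmod UMIs. Aspn was high, at 403 in ligated cells and 759, 363 and 456 in mock cells, as was Ogn at 1410 and 1874, 1329 and 1053. In mock 2 the 5 cells of subset 7, led by lymphocyte genes, summed to Aspn at 379 and Ogn at 1328. All 28 of those Aspn UMIs came from 1 cell, and the 98 Ogn UMIs from 4 cells. Ligated cells of subset 3 had Ogn at 1229. Dcn was at 10300 in ligated cells and 9796, 8309 and 8862 in mock cells, so in this subset the ligated Dcn value did not lie below the mock values. The cells were few and their shares of the libraries were not compared.

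**Figure D5:**
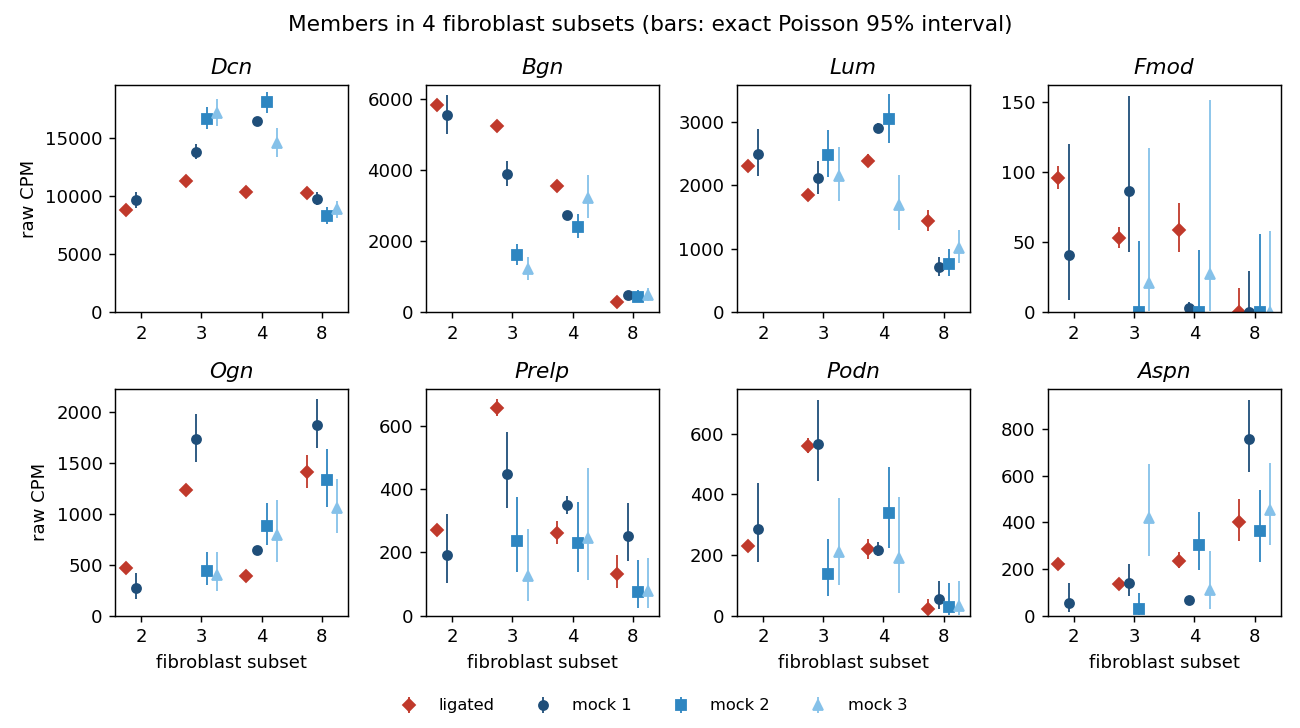
Each panel gives 1 gene's raw CPM (vertical axis) in fibroblast subsets 2, 3, 4 and 8 (horizontal axis) of each library with at least 5 cells in the subset, with exact Poisson 95% intervals. In subset 8 Bgn lies between 280 and 471 in all libraries and Podn between 23.7 and 55.3, below their values in the other subsets shown.

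The other genes of the family were read in the same test. Of 10 further members, 6 could be tested in fibroblasts, 0 passed edgeR's test, and 1 lay above the mock range, 3 below and 2 within it (median log2 fold change -0.20). Kera (keratocan), downstream of Lum, was at 2.06 CPM in the ligated library against 19.7, 20.5 and 34.4 CPM in mock 1, 2 and 3 (log2 fold change -3.59 ± 0.54 SE, adjusted p = 0.167 by edgeR). Epyc (epiphycan), the next gene, was at 11.9 CPM against 32.4, 17.8 and 40.0 CPM. Dcn, Lum, Kera and Epyc, the genes of the chromosome 10 cluster, lay below the mock range, as did 28.8% of all genes tested. On chromosome 13, Omd (osteomodulin) lay above the range like its neighbour Aspn, at 62.2 CPM in the ligated library against 24.9, 40.4 and 35.4 CPM in mock, and Ogn within it. Chadl was at 8.40 CPM against 10.3, 10.1 and 9.62 CPM.

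Collagens are the ligands that members bind. Of 13 fibrillar and fibril-associated collagens tested, 10 lay above, 1 below and 2 within the range (median log2 fold change 0.46), beside 30% above and 28.8% below among all genes tested, and 0 passed edgeR's test. Several of the 10 were close to mock 1, with log2 ratios of ligated over mock 1 of 0.06 for Col6a1 and 0.02 for Col6a2. Col11a1, which nucleates thin fibrils, was at 48.4 CPM in the ligated library against 4.70, 3.87 and 2.02 CPM in mock 1, 2 and 3. Col1a1, the main fibril chain, was at 4361 CPM against 2636, 2060 and 1859 CPM. Col12a1 was at 56.7 CPM against 33.9, 25.9 and 23.5 CPM, and Col16a1 at 165 CPM against 108, 71.1 and 64.3 CPM.

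Genes that build the sugar chains divided in both directions, with 0 passing edgeR's test. Of 20 chondroitin and dermatan sulfate genes tested, 5 lay above, 7 below and 8 within the mock range (median log2 fold change -0.17). Among all genes tested, 30% lay above the range and 28.8% below it. Xylt1, which starts the chain, was at 10.5 CPM in the ligated library against 16.5, 22.0 and 18.0 CPM in mock. Csgalnact1 was at 28.6 CPM against 47.5, 107 and 108 CPM, and Ust at 15.9 CPM against 17.9, 67.5 and 74.9 CPM, so for both mock 1 lay near the ligated library. Chst15 was at 10.5 CPM against 6.11, 5.35 and 7.34 CPM. Of 8 keratan sulfate genes, 2 lay above, 3 below and 3 within the range (median -0.28), with B4galt1 at 68.4 CPM in the ligated library against 167, 149 and 131 CPM in mock. Chst1, a keratan sulfate sulfotransferase, was at 11.4 CPM against 6.58, 4.16 and 5.31 CPM. St3gal1 was at 35.2 CPM against 91.7, 46.4 and 50.9 CPM, and B3gnt2 at 61.0 CPM against 4.23, 51.1 and 53.1 CPM.

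Among 16 receptors and signals that members bind, 4 lay above the mock range, 8 below and 4 within it (median log2 fold change -0.33), and 0 passed edgeR's test. The shares over all genes tested were 30% above the range and 28.8% below it. Ccn4, a matrix-associated signalling protein, was at 119 CPM in the ligated library against 25.9, 12.5 and 10.4 CPM in mock 1, 2 and 3. Bmp4, a bone morphogenetic protein, was at 55.6 CPM against 219, 194 and 224 CPM. The growth factors Tgfb1 and Tgfb3 lay above the range, Tgfb1 at 136 CPM against 64.4, 22.0 and 24.8 CPM and Tgfb3 at 100 CPM against 63.0, 19.3 and 13.2 CPM. Their relative Tgfb2 lay below it, at 91.5 CPM in the ligated library against 135, 124 and 103 CPM in mock 1, 2 and 3.

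Of 13 proteases or protease partners that act on members, 3 lay above, 5 below and 5 within the mock range (median log2 fold change -0.39), again with 0 passing edgeR's test. For all genes tested the shares were 30% above the range and 28.8% below it. Htra1, a secreted serine protease, was at 379 CPM in the ligated library against 599, 759 and 731 CPM in mock. Tll1 was at 1.43 CPM against 4.23, 10.4 and 13.9 CPM, and Pcolce2 at 21.2 CPM against 87.5, 50.6 and 23.8 CPM. Gzmb, a granzyme of cytotoxic lymphocytes, was at 64.4 CPM against 0.47, 0.30 and 26.6 CPM, beside the NK or ILC1 marker sums given above, and the part of lymphocyte RNA in it was not tested. Of 15 other proteoglycans, 3 lay above, 6 below and 6 within the range (median -0.35). Gpc3, a glypican of the cell surface, was at 16.6 CPM in the ligated library against 68.7, 84.5 and 68.6 CPM in mock, and Spock2 at 29.3 CPM against 128, 66.0 and 69.3 CPM. Gpc1 was at 17.2 CPM against 9.87, 3.87 and 3.54 CPM, and Cspg4, one of the mural markers, at 78.6 CPM against 42.8, 49.4 and 52.9 CPM.

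For each member, the genes most alike across 40 sums of a class in a library (11 classes) were found by Pearson's r of log2(CPM + 1). These points share libraries and class composition, so r is a description of which classes hold a gene. Podn was most like Inmt, Prrx2 and Col6a6 (r = 0.972, 0.972 and 0.970), and Dcn like Smoc2, Dpep1 and Fbln1 (0.957, 0.942 and 0.937). Lum was nearest to Fbln1 (0.958), Svep1 (0.942) and Cpxm1 (0.941), Bgn to Col1a2 (0.940), Serping1 (0.934) and Col3a1 (0.930), and Ogn to Col5a1 (0.940), Islr (0.940) and Col6a1 (0.933). Aspn stood with the mural genes Pdgfrb, Foxs1 and Ednra (0.971, 0.963 and 0.957). Prelp was nearest to Twsg1 (0.929), Adamts15 (0.905) and Col4a5 (0.888), and Fmod to Nipal2 (0.925), Trnp1 (0.898) and Gm15867 (0.889).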

How the data were processed

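Droplet-based single-cell RNA sequencing was done on stroma-enriched cells. The deposited values are counts, raw UMI counts per gene and barcode with no normalization, in 1 matrix per library. The submitters' processing notes name mm10 and Cell Ranger 7.0.1, whereas per the file headers versions 6.0.1 (ligated, mock 1) and 7.0.0 (mock 2 and 3) were used. Counting of introns is stated in neither.

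Genes were joined by ID. Cells had at least 500 UMIs, 300 genes and at most 15% mitochondrial UMIs. Scrublet (scanpy 1.11.5) called 732, 76, 171 and 1 doublets in the ligated library and mock 1, 2 and 3, so in mock 3 it had not worked and doublets remain. After removing the 8 genes, 2000 variable genes, 30 principal components and 15 neighbours gave 37 Leiden clusters (leidenalg 0.10.2, resolution 1.0, 0.5 for fibroblast subsets). Clusters were named from listed markers by a score (at least 3 markers in 25% of cells, mean log2 ratio 0.5 or more) whose details were set after the clusters were seen. A cluster of 213 cells (212 ligated), low in UMIs with mixed leading genes, stayed unnamed.

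Counts were summed per class and library and compared with edgeR 4.0.16 (TMM, filterByExpr, quasi-likelihood test, Benjamini-Hochberg at 0.05 over all genes), DESeq2 1.42.0 being an alternative. The mock libraries alone give the spread, which the ligated library is taken to share. With 1 library against 3 no exact permutation test of a single gene could pass the threshold. The edgeR step was tested on simulated data. Members, lists and markers were chosen with earlier results of these data known. Named genes of other lists have at least 10 CPM in a library, lie outside the mock range in fibroblasts and are at most the 4 with the largest fold change. Col6a1, Col6a2 and Tgfb2 are given besides. Intervals are exact (Clopper-Pearson or Poisson, 95%) and cover counting error only.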

Additional observations from a re-analysis of the deposited data

Results flagged for a closer look

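The ligated minus mock difference of Fmod was larger in fibroblasts than in mural cells by 3.57 on the log2 scale, and this difference itself passed the test (adjusted p = 0.0310, edgeR's class by surgery term). Fmod stood above all mock values in fibroblasts (81.1 CPM against 9.87, 3.87 and 7.09) and within the mock range in mural cells (5.01 CPM against 6.36, 4.57 and 4.29). Mural counts were low, with 11 Fmod UMIs in the ligated library against 12, 8 and 11 in mock 1, 2 and 3. Without mock 2 the difference was 3.35 and did not pass (adjusted p = 0.381 by edgeR). Groups of 3 libraries are too small for a test of outlying samples.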

How the results depend on the processing

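In fibroblasts edgeR called 0 genes, against 270 with DESeq2, 4 with no filter on low counts and 2722 with a term for the Cell Ranger version. Leaving out each mock library in turn gave 0 to 6702 calls, the highest without mock 1. In mural cells the 0 calls became 1 with DESeq2, 153 with the version term and 0 to 967 when each mock library was left out. In endothelial cells they became 230 with DESeq2, 5217 with the version term and 0 to 8937 without a mock library. The highest counts again came without mock 1, which leaves mock 2 and 3, the pair that differed least. With the version term the spread within a class likewise comes from mock 2 and 3 alone. The count for the difference between fibroblasts and mural cells was 57 and became 362 with no filter, 370 with the version term and 0 to 444 without a mock library (0 without mock 2). All 16 alternatives kept the direction of Dcn, Bgn, Lum, Fmod, Prelp, Podn and Aspn in fibroblasts. Ogn turned to -0.0245 over mock 1 alone and with the version term, which likewise sets the ligated library against mock 1 only. Bgn in mural cells turned to -0.0012 with the version term, and Fmod in mural cells ranged from -0.12 to 0.18 without a mock library. The Podn difference between classes turned to -0.55 with DESeq2, -5.26 with the version term and ranged from -1.999 to 0.82 without a mock library. The cause was not tested. Removing the highest doublet scores, another mitochondrial limit, other resolutions, clustering with the members, and, chosen after seeing the data, leaving out mixed subsets or adding the cluster low in UMIs gave 0 calls in fibroblasts. Weighting subsets equally could not be run, since 0 subsets had 20 cells in every library. No paired analysis was possible because the groups share fewer than 2 replicate numbers. Shares of cells with a UMI depend on depth, and 72 of 96 alternatives at other depths lay outside the main interval.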

Other observations

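The unnamed cluster of 213 cells low in UMIs, 212 of them ligated, held Dcn at 1395 raw CPM (UMIs per 1000000 UMIs of the cluster), Bgn at 995 and Lum at 578, between the ligated fibroblast levels and those of lymphocytes. Its leading genes were of lymphocytes, dendritic cells and fibroblasts together (Ctsw, Itgax, Cilp).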
